A study of Mus musculus with 6 samples.

Results

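The genes described here encode the core machinery of autophagy, the process by which a double membrane, the phagophore, grows around cytoplasm, closes into an autophagosome and fuses with a lysosome, where the content is broken down. A kinase complex around ULK1 or ULK2 starts the process, a lipid kinase complex around PIK3C3 marks the membrane, ATG2, ATG9 and WIPI proteins help it grow, and 2 conjugation systems attach ATG8 proteins such as LC3 and GABARAP to it. Cargo receptors such as SQSTM1 (p62) bind both the cargo and the ATG8 proteins, and the transcription factors TFEB and TFE3 drive many autophagy and lysosome genes. In vascular smooth muscle cells autophagy is known to clear damaged mitochondria and protein aggregates and to bear on the contractile state of the cells. The genes were chosen by name as protein-coding rows whose symbol starts with Atg and a digit, with *Gabarap* or with Map1lc3, together with 16 further symbols, from *Ulk1* to *Tfe3*. The rule found 39 of the 41721 genes in the table, and all 39 passed the filter on low counts and were among the 14085 genes tested. *Atg9b* passed through its counts in the knockout libraries. No row carried the symbol *Map1lc3b*, the gene for LC3B.

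RNA was sequenced from mouse aortic smooth muscle cells (MASMCs) taken from the abdominal aorta and cultured in serum-containing medium, with 3 libraries from *Pdk4* fl/fl cells (called fl/fl below) and 3 from *Pdk4* SMKO cells (called SMKO). *Pdk4* encodes a mitochondrial kinase that inhibits pyruvate dehydrogenase. In both genotypes loxP sites flank exons 4 to 6 of *Pdk4*, and *Pdk4* SMKO mice also carry a tamoxifen-inducible Cre driven by the *Myh11* promoter (*Myh11*-icre/ERT2), which is active in smooth muscle cells. Per the study's methods, mice of both genotypes received tamoxifen, were 10 weeks old when cells were isolated, and the cells, between passages 4 and 8, were serum-starved and then stimulated with 1 μM angiotensin II (Ang II) for 48 h. No library came from unstimulated cells, so the comparison is of the transcripts of SMKO and fl/fl cells under Ang II. The libraries of a genotype are described as biological replicates, without saying which mouse each came from, so that p-values measure the spread between these libraries.

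The libraries held 16526044 to 22481670 counts, and a count of 3, taken as the floor of detection for counting error alone, corresponded to 0.132 to 0.227 CPM. CPM here is a count scaled to the library total, adjusted with TMM factors, which allow for differences in composition between libraries. *Pdk4* fell from 35.0 ± 3.07 to 6.93 ± 2.11 CPM (SD, n = 3 each; log2 fold change -2.34, adjusted p = 4.49e-06, edgeR's quasi-likelihood test), counted over the whole gene, exons outside the deleted stretch included. Genotypes were far apart genome-wide, with 26.5% of all genes tested called lower in SMKO cells and 32.8% called higher at an adjusted p under 0.05 and at least a 2-fold difference. Markers of other cell types also moved with genotype. Of the smooth muscle list 3 of 8 markers were lower and 4 higher, with a summed level of 785 to 811 CPM in fl/fl and 723 to 954 CPM in SMKO libraries, and *Myh11* itself was nearly absent (8 to 10 and 44 to 62 counts). All 7 mesothelial markers tested, of 8 listed, were higher in SMKO cells (summed level 74.2 to 99.99 against 723 to 1325 CPM), as were 3 of 6 fibroblast markers, with 1 lower (141 to 173 against 1320 to 2774 CPM). Of 8 macrophage markers 6 were tested, with 5 higher and 1 lower (21.4 to 38.0 against 9.71 to 30.5 CPM), and *Adgre1*, *C1qa*, *C1qb* and *Tyrobp* had 0 counts in every fl/fl library while *Itgam* had 0 counts in all 6 libraries. Of 7 endothelial markers 3 were tested and lower (17.4 to 26.3 against 2.94 to 5.62 CPM), and *Tie1* had 0 counts in fl/fl. Of 6 proliferation genes 2 were lower (397 to 476 against 237 to 397 CPM). *Xist*, expressed from the inactive X chromosome of female cells, had 3 to 5 counts in fl/fl and 321 to 610 counts in SMKO libraries. By the study's methods the mice were male and the Cre transgene lies on the Y chromosome, so the *Xist* counts of the libraries labelled SMKO go against the stated sex, and the cause was not tested. The part of these differences in the results was not tested. For those that separate the genotypes, such as *Xist* and the mesothelial sum, it cannot be told apart from loss of *Pdk4* with these libraries. In bulk RNA fewer cells of a type and less RNA per cell cannot be told apart.

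Of the 39 autophagy genes, 19 were called lower in SMKO cells and 8 higher, that is 48.7% and 20.5%, against 26.5% and 32.8% of all genes tested. The median log2 fold change (SMKO minus fl/fl) was -0.97 over the members and 0.12 over all genes tested, while the median size of the change regardless of direction was 1.33 and 1.30. With an adjusted p under 0.05 and no limit on the fold, 23 members were lower and 9 higher, beside 37.1% and 42.0% of all genes tested. The ranges of the genotypes did not overlap for 33 of the 39 members, a share of 84.6%, which is near the 81.8% of all genes tested. The 8 include *Atg9b*, which passed the filter only through the SMKO libraries and so had to differ. Without it 7 of 38 members were higher, or 18.4%. All 4 cargo receptors and 3 of 4 ATG8 genes were called lower, while the other roles in autophagosome formation held calls in both directions: initiation with 1 lower and 2 higher, the PI3 kinase complex with 3 and 2, membrane supply with 2 and 3 (*Atg9b* among the 3) and conjugation with 4 and 1. No test of role against direction was run. Together the 39 genes took 1.44%, 1.53% and 1.40% of the counts in the fl/fl libraries and 0.341%, 0.352% and 0.357% in the SMKO libraries. Without *Sqstm1* these shares were 0.582%, 0.609% and 0.586% against 0.262%, 0.273% and 0.275%.

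**Figure D1:**
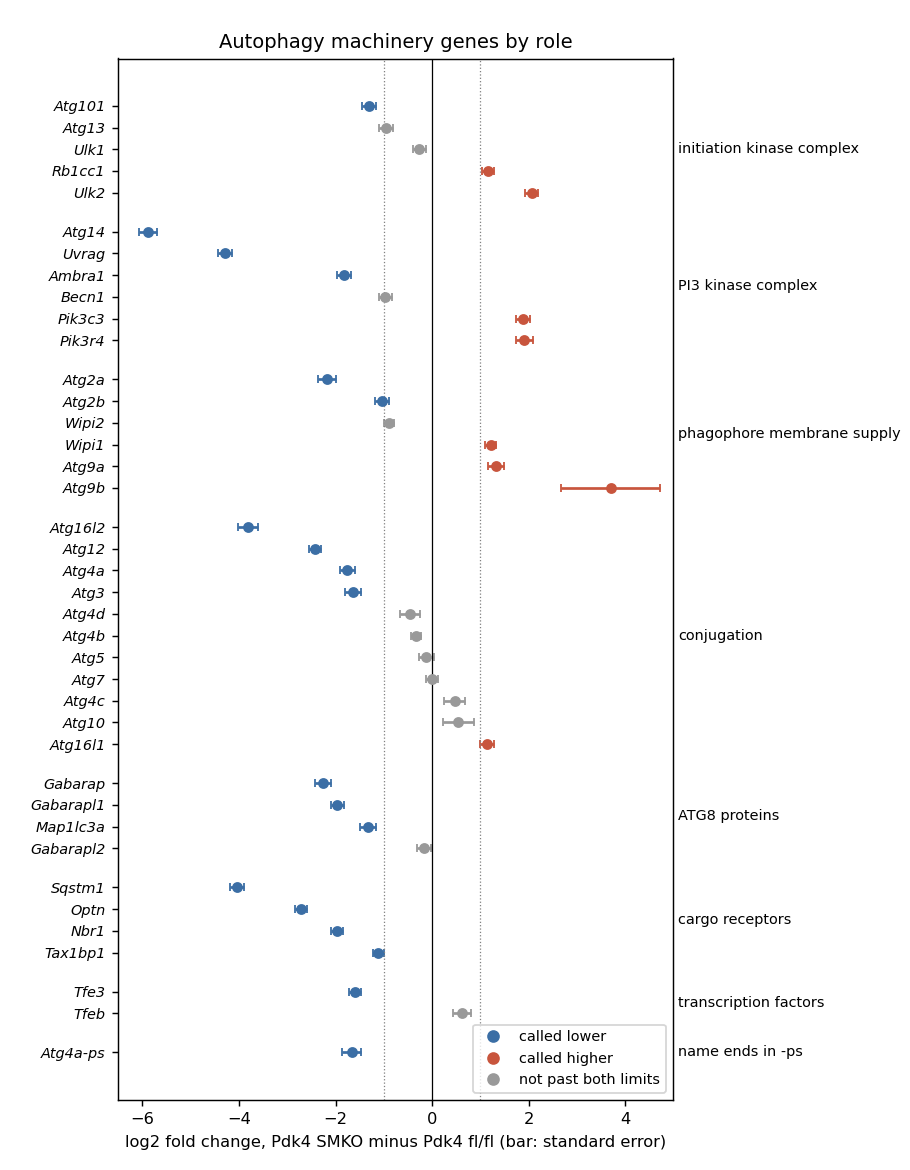
Log2 fold change (x axis, SMKO minus fl/fl, TMM-scaled) of the 39 autophagy genes, grouped by role, with the standard error as a bar and dotted lines at a 2-fold difference. The 19 blue points were called lower and the 8 red points higher, from *Atg14* at -5.89 to *Atg9b* at 3.70, and the 12 grey points did not pass both limits.

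The scale matters to these counts because so many genes moved. TMM factors were 0.784 to 0.838 in fl/fl and 1.21 to 1.26 in SMKO libraries, and scaling by library size alone raised the median log2 fold change of all genes by 0.60, with 17.0% of genes then lower and 43.9% higher. On that scale 14 members were called lower and 11 higher. All 8 higher calls, *Atg9b* included, and 14 of the 19 lower calls were made with each of TMM, RLE, upper-quartile and library-size scaling and with DESeq2. The 5 lower calls that were not were *Atg2b*, *Tax1bp1*, *Map1lc3a*, *Atg101* and *Tfe3*, and their log2 fold changes stayed below 0 with each scaling. Directions flipped between scalings for *Ulk1*, *Atg4b*, *Atg4d*, *Atg5*, *Atg7* and *Gabarapl2*, which lay between -0.45 and -0.01 with TMM. No direction is given for these 6 beyond the TMM fit, in which *Atg4b* is among the 23 members lower at an adjusted p under 0.05. For related genes the share of each among the members of its family is given too, since such shares do not depend on the scaling.

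**Figure D2:**
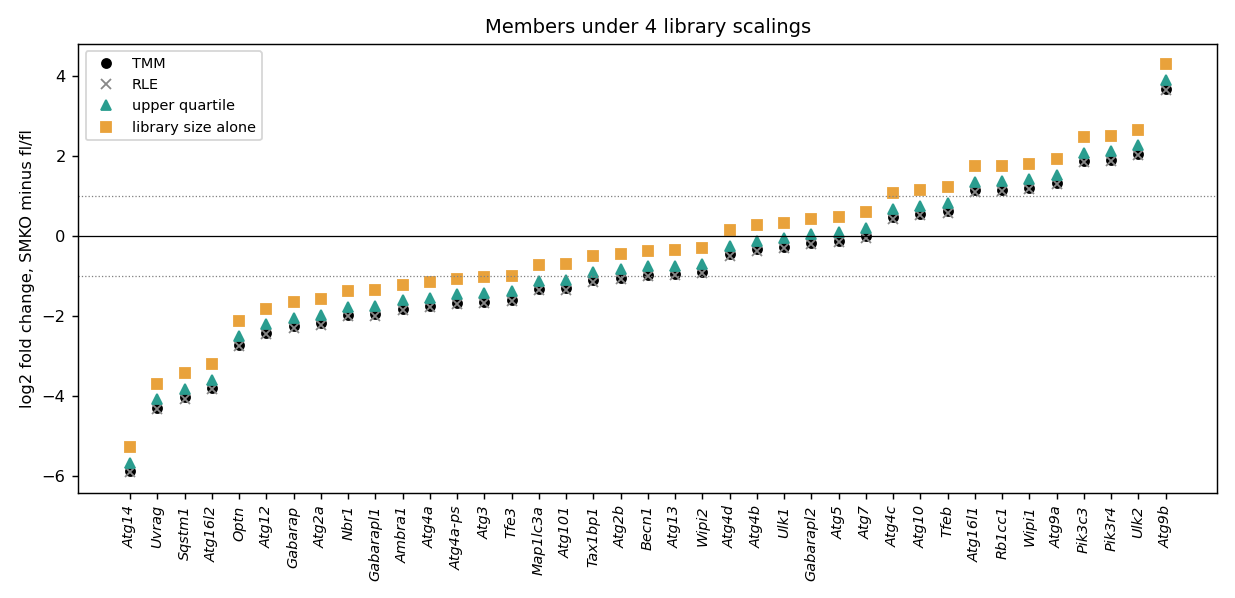
Log2 fold change (y axis, SMKO minus fl/fl) of each of the 39 members (x axis, ordered by the TMM value) with TMM, RLE, upper-quartile and library-size scaling, with dotted lines at a 2-fold difference. Library size alone gave the highest value for each gene. The 6 genes near 0 changed sign, and all 8 of the called higher genes stayed above 1.

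Among the 5 genes of the initiation complex, 1 was called lower and 2 higher. ULK1 and ULK2 are the alternative catalytic subunits, of which *Ulk2* rose and *Ulk1* was not called. *Ulk1* had 110.2, 98.5 and 85.7 CPM in the 3 fl/fl libraries and 77.6, 89.7 and 77.7 CPM in the SMKO libraries, and the genotypes overlapped (-0.27 ± 0.13, adjusted p = 0.0881; log2 fold change ± SE, edgeR's quasi-likelihood test). *Ulk2* had 15.7, 13.1 and 13.6 CPM in fl/fl and 56.5, 60.5 and 59.9 CPM in SMKO cells. Every SMKO library was thus above every fl/fl library, 4.17-fold on average (2.06 ± 0.13, adjusted p = 3.18e-07). Per deposited gene length, *Ulk2* made up 13.6% ± 1.08 (SD, n = 3) of the summed ULK level in fl/fl and 44.0% ± 1.64 in SMKO cells. The libraries gave 13.4, 12.6 and 14.7% and 44.1, 42.3 and 45.5%, with no overlap (exact permutation test, two-sided p = 0.1, the smallest that 3 against 3 can give, as for every share below whose genotypes did not overlap).

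The other subunits also differed in direction. *Rb1cc1*, which encodes the scaffold FIP200, rose from 40.2, 38.8 and 40.0 CPM to 84.2, 83.6 and 98.0 CPM, with all 3 SMKO libraries higher (1.16 ± 0.12, adjusted p = 8.96e-06). *Atg101*, the partner that stabilizes ATG13, had 69.3, 90.3 and 98.4 CPM in fl/fl and 34.9, 33.6 and 35.4 CPM in SMKO cells. It was lower in all 3 knockout libraries (-1.31 ± 0.15, adjusted p = 1.63e-05), and with library size alone the difference was -0.70, short of 2-fold. *Atg13*, which links the kinase to the scaffold, had 96.1, 107 and 87.8 CPM against 43.3, 57.4 and 49.5 CPM. It passed the p threshold but not the fold limit (-0.95 ± 0.14, adjusted p = 0.000122), which it passed without fl/fl replicate 3 (-1.03) or SMKO replicate 2 (-1.05).

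The widest divergence within a group was in the PI3 kinase complex, which makes the phosphatidylinositol 3-phosphate that recruits the later proteins. *Atg14* and *Uvrag* encode alternative subunits that send the complex to the phagophore and to endosomes, respectively. *Atg14* (chromosome 14 from 43055370 to 43091541 in the coordinates of the table, minus strand) had 18867, 25514 and 16901 counts in the fl/fl libraries and 415, 437 and 542 counts in the SMKO libraries. On the TMM scale these are 1258, 1401 and 1279 CPM and 18.2, 21.7 and 26.6 CPM, a 59.2-fold difference, the most negative log2 fold change among the members (-5.89 ± 0.18, adjusted p = 9.86e-09). In rank by counts per library, *Atg14* stood between 96 and 129 among all genes in fl/fl cells and between 6080 and 7304 in SMKO cells. *Uvrag* had 576, 671 and 538 CPM in fl/fl and 29.4, 32.5 and 28.8 CPM in SMKO cells, 19.7-fold less (-4.30 ± 0.14, adjusted p = 1.18e-08). No library of one genotype came near the range of the other for either gene.

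The catalytic subunit and its regulator went the other way. *Pik3c3*, the lipid kinase VPS34, had 10.1, 11.9 and 11.4 CPM in fl/fl and 35.6, 45.6 and 42.3 CPM in SMKO cells, 3.70-fold more (1.89 ± 0.15, adjusted p = 1.63e-06). *Pik3r4*, its regulatory subunit VPS15, had 15.7, 14.3 and 9.69 CPM against 47.8, 53.4 and 48.5 CPM, 3.77-fold more (1.91 ± 0.18, adjusted p = 4.8e-06). These 2 subunits, which bind each other directly, were higher in every knockout library, and the ratio of their length-scaled levels was 0.556 ± 0.164 in fl/fl and 0.564 ± 0.050 in SMKO cells, with overlapping ranges. *Becn1* (Beclin 1), the subunit common to both forms of the complex, had 133, 149.8 and 176 CPM against 84.3, 78.2 and 71.6 CPM. It was lower in all 3 SMKO libraries and just short of the fold limit (-0.97 ± 0.14, adjusted p = 8.03e-05), which it passed with DESeq2, with RLE factors and without fl/fl replicate 1 or SMKO replicate 1. *Ambra1*, a positive regulator of Beclin 1, fell from 207, 228 and 161 to 52.1, 60.7 and 56.1 CPM (-1.82 ± 0.15, adjusted p = 1.74e-06).

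A measure free of the scaling, chosen after the values were seen, was the make-up of the 5 subunit transcripts per length. *Atg14* made up 64.6% ± 0.776 of their sum in fl/fl cells and 14.0% ± 2.60 in SMKO cells, and *Uvrag* 29.3% ± 1.58 and 19.1% ± 0.674. *Becn1* went from 5.48% ± 0.897 to 35.7% ± 3.64, *Pik3c3* from 0.423% ± 0.0258 to 20.0% ± 1.82 and *Pik3r4* from 0.232% ± 0.0554 to 11.2% ± 0.280. The ratio of length-scaled levels of *Atg14* to *Becn1* was 12.0 ± 1.68 in fl/fl and 0.398 ± 0.108 in SMKO cells. That of *Uvrag* to *Becn1* was 5.47 ± 1.08 against 0.538 ± 0.049. The lengths are the deposited gene lengths, so these are not ratios of molecules. In fl/fl cells the 2 targeting subunits were thus the most abundant of the 5 transcripts, and in SMKO cells *Becn1* was.

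**Figure D3:**
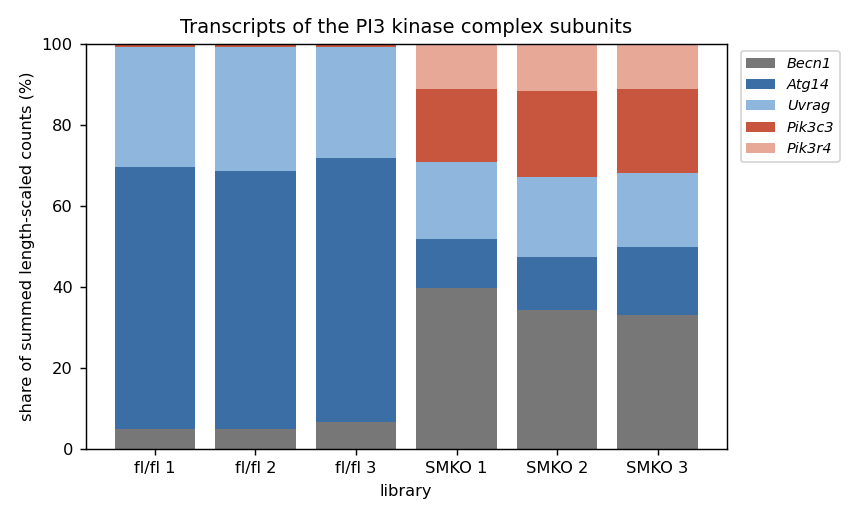
Share of each subunit (y axis, %) in the summed length-scaled counts of *Becn1*, *Atg14*, *Uvrag*, *Pik3c3* and *Pik3r4*, with a stacked bar for each of the 6 libraries (x axis). *Atg14* (dark blue) filled 64.6, 63.8 and 65.3% of the fl/fl bars and 11.9, 13.1 and 16.9% of the SMKO bars, where *Becn1* (grey) and *Pik3c3* (red) widened.

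Of the 6 genes of phagophore membrane supply, 2 were called lower and 3 higher. The ATG2 proteins transfer lipid to the growing membrane. *Atg2a* had 296, 285 and 187 CPM in fl/fl and 59.7, 59.6 and 49.8 CPM in SMKO cells (-2.18 ± 0.18, adjusted p = 2.05e-06), and *Atg2b* 144, 156 and 121 CPM against 59.9, 75.9 and 69.2 CPM (-1.04 ± 0.14, adjusted p = 6.27e-05). Both were lower in every knockout library. The call of *Atg2b* was at the edge of the fold limit and was lost without fl/fl replicate 2 (-0.95) or SMKO replicate 1 (-0.94), and with upper-quartile scaling (-0.83). Per length, *Atg2a* was the larger share of the pair in fl/fl cells (70.3% ± 3.09) and near parity in SMKO cells (52.2% ± 4.18).

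WIPI1 and WIPI2 bind phosphatidylinositol 3-phosphate and bring the conjugation machinery to the membrane. *Wipi1* rose from 51.8, 49.3 and 47.4 CPM to 105, 122 and 118 CPM (1.21 ± 0.12, adjusted p = 5.84e-06). *Wipi2* had 206, 208 and 207 CPM against 108, 113 and 111 CPM, lower in every knockout library by less than 2-fold (-0.90 ± 0.10, adjusted p = 2e-05). Their order per length was inverted: *Wipi1* made up 36.4% ± 1.10 of the pair in fl/fl cells and 71.2% ± 1.23 in SMKO cells, without overlap. By counts alone *Wipi2* was the larger in fl/fl cells, and in SMKO cells the pair was close. There *Wipi1* had 2381, 2459 and 2402 counts and *Wipi2* 2465, 2278 and 2265. ATG9 proteins are the membrane-spanning scramblases of the pathway. *Atg9a* had 16.6, 14.4 and 11.2 CPM in fl/fl and 34.2, 38.7 and 33.6 CPM in SMKO cells (1.33 ± 0.17, adjusted p = 3.96e-05). Its row overlaps that of *Ankzf1* on the opposite strand by 46 bases, and *Ankzf1* rose from 24.7 to 410.3 counts on average, so reads could be shared if strand was not used in counting. *Atg9b* had 5, 1 and 3 counts in fl/fl, near the floor, and 139, 10 and 25 counts in SMKO cells. The genotypes did not overlap, but the size rests on SMKO replicate 1: the log2 fold change was 3.70 ± 1.02 (adjusted p = 0.00656) with it and 2.11 without it (adjusted p = 0.0196).

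The conjugation group, with 11 genes, had 4 called lower, 1 called higher and 6 that did not pass both limits. In this group the ubiquitin-like ATG12 is joined to ATG5 by ATG7 and ATG10, the product binds ATG16L1, and ATG7, ATG3 and the ATG4 proteases then lipidate or release the ATG8 proteins. *Atg12* had 223, 239 and 265 CPM in fl/fl and 42.9, 45.2 and 47.5 CPM in SMKO cells, 5.36-fold less (-2.42 ± 0.12, adjusted p = 6.88e-08). Its partner *Atg5* ranged from 23.5 to 31.0 CPM in fl/fl and from 22.5 to 26.6 CPM in SMKO cells (-0.12 ± 0.15, adjusted p = 0.48). *Atg7*, the E1-like enzyme of both conjugation systems, had 46.8, 48.4 and 42.8 CPM against 42.4, 46.6 and 48.4 CPM (-0.01 ± 0.12, adjusted p = 0.965). The ranges of *Atg5* and of *Atg7* overlapped between genotypes, while those of *Atg12* did not. *Atg10*, the E2-like enzyme for ATG12, had 2.27, 2.53 and 4.62 CPM against 3.91, 4.58 and 5.15 CPM (0.55 ± 0.32, adjusted p = 0.136), also overlapping. *Atg3*, the E2-like enzyme for the ATG8 proteins, fell from 130.1, 166 and 209 to 51.3, 53.2 and 57.3 CPM, with every knockout library lower (-1.64 ± 0.17, adjusted p = 9e-06).

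The ATG16L pair showed the largest switch in make-up among the families. ATG16L1 carries the ATG12 to ATG5 conjugate to the phagophore, and ATG16L2 is a paralogue that does not replace it in conventional autophagy. *Atg16l2* had 86.7, 97.0 and 99.1 CPM in fl/fl and 8.74, 6.57 and 4.81 CPM in SMKO cells, 14.1-fold less (-3.81 ± 0.21, adjusted p = 1.09e-07). *Atg16l1* had 20.7, 17.3 and 16.3 CPM against 42.0, 41.8 and 36.6 CPM, 2.21-fold more (1.15 ± 0.14, adjusted p = 3.88e-05). Both differences were seen in all 3 libraries of each genotype. Per length, *Atg16l1* made up 8.80, 6.71 and 6.24% of the pair in the fl/fl libraries and 66.0, 71.9 and 75.5% in the SMKO libraries, so that the minor transcript in one genotype was the major one in the other.

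Of the 4 ATG4 proteases, which process ATG8 proteins, only *Atg4a* was called with TMM, and *Atg4c* (1.07) too with library size alone. *Atg4a* had 24.5, 27.5 and 26.9 CPM in fl/fl and 6.72, 8.76 and 7.95 CPM in SMKO cells (-1.75 ± 0.16, adjusted p = 3.96e-06). *Atg4b* had 62.3 to 66.5 CPM against 49.4 to 52.7 CPM, without overlap but by a log2 fold change of -0.33 only (adjusted p = 0.0188), which turned to 0.27 with library size alone. *Atg4c* had 5.87, 4.34 and 4.77 CPM against 6.76, 6.42 and 7.55 CPM (0.47 ± 0.22, adjusted p = 0.0682). *Atg4d* ranged from 12.5 to 17.0 CPM in fl/fl and from 8.73 to 13.2 CPM in SMKO cells (-0.45 ± 0.21, adjusted p = 0.0651), with overlap. Per length *Atg4a* was the largest share of the family in fl/fl cells (50.0% ± 3.35), and in SMKO cells *Atg4b* was (35.9% ± 0.694). By counts alone *Atg4b* was the largest in every library of both genotypes. In fl/fl it had 997, 1169 and 823 counts, against 368, 500 and 356 for *Atg4a*. The row *Atg4a-ps*, which is listed as protein-coding although its name marks a pseudogene, had 10.3, 10.2 and 10.7 CPM against 3.07, 3.19 and 3.58 CPM (-1.67 ± 0.20, adjusted p = 2.4e-05). Its name marks a copy of *Atg4a*, and reads could be split between the 2 rows. *Atg4b* and *Atg4d* overlap *Thap4* (278 and 350.0 counts on average in the 2 genotypes) and *Kri1* (263 and 299) on the opposite strand, and *Becn1*, *Rb1cc1* and *Optn* overlap opposite-strand rows with at most 60 counts on average.

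Of the 4 named ATG8 genes, 3 were called lower. *Gabarap* had 1046, 1143 and 1534 CPM in fl/fl and 235, 249 and 292 CPM in SMKO cells, 4.80-fold less (-2.26 ± 0.17, adjusted p = 1.01e-06). *Gabarapl1* had 457, 505 and 530.4 CPM against 109.8, 141 and 133 CPM, 3.90-fold less (-1.96 ± 0.14, adjusted p = 5.21e-07), and a non-coding row on the opposite strand that overlaps it by 371 bases, *1700101I11Rik*, fell alongside (-2.01). *Map1lc3a* (LC3A) had 101, 124 and 153 CPM against 52.1, 55.0 and 43.9 CPM (-1.32 ± 0.17, adjusted p = 3.74e-05). These 3 genes were lower in each knockout library. *Gabarapl2* (GATE-16), by contrast, had 39.3, 43.5 and 51.7 CPM against 37.9, 37.8 and 43.8 CPM, with overlap (-0.17 ± 0.14, adjusted p = 0.288). Its share of the family per length went from 1.80% ± 0.0436 to 6.33% ± 0.394 and that of *Map1lc3a* from 9.43% ± 0.516 to 15.1% ± 2.44, while *Gabarap* went from 59.4% ± 2.58 to 49.2% ± 3.01. *Gabarapl1* held 29.4% ± 2.74 and 29.5% ± 2.13, with overlapping ranges. *Gabarap* was the most abundant of the 4 per length in both genotypes. An unnamed protein-coding row on chromosome 8, whose description names LC3B, was outside the rule and had 295, 363 and 407 CPM against 167, 235 and 257 CPM (-0.69, adjusted p = 0.00484).

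The 4 cargo receptors were all called lower, the only role group in which every gene was called in one direction among the groups with more than 1 gene. *Sqstm1* (p62, chromosome 11 from 50826600 to 50839323 in the coordinates of the table, minus strand) had 10250.0, 11384 and 10372 CPM in fl/fl and 636, 653 and 661 CPM in SMKO cells, 16.4-fold less (-4.04 ± 0.14, adjusted p = 1.45e-08). In fl/fl cells it ranked 2 or 3 by count among all genes and took 0.858%, 0.922% and 0.812% of all counts, whereas in SMKO cells it ranked 111 to 125 with 0.080%, 0.079% and 0.082%. The 95% exact binomial (Clopper-Pearson) interval of the share in fl/fl replicate 1, for counting error alone, was 0.854% to 0.862%, narrower than the spread between the fl/fl libraries. Per length it remained the most abundant member in both genotypes, at 3179 and 194 CPM per kb. Its row overlaps *3010026O09Rik* on the opposite strand, which had 13.3 and 19.7 counts on average.

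The other receptors fell by less. *Optn*, the receptor optineurin used in mitophagy and in clearing bacteria, went from 223, 246 and 274 to 36.7, 38.0 and 37.7 CPM (-2.72 ± 0.12, adjusted p = 4.28e-08). *Nbr1*, a receptor for ubiquitinated aggregates and peroxisomes, went from 623, 642 and 533 to 148, 158 and 151 CPM (-1.98 ± 0.12, adjusted p = 2.61e-07). *Tax1bp1*, which serves in aggregate and pathogen clearance, went from 325, 313 and 353 to 142, 148 and 169 CPM (-1.11 ± 0.12, adjusted p = 1.26e-05). None of the 3 overlapped between genotypes, and the call of *Tax1bp1* was lost with upper-quartile scaling (-0.90) and with library size alone (-0.50). The ratio of length-scaled levels of *Sqstm1* to *Nbr1* was 34.4 ± 2.90 in fl/fl and 8.23 ± 0.243 in SMKO cells.

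**Figure D4:**
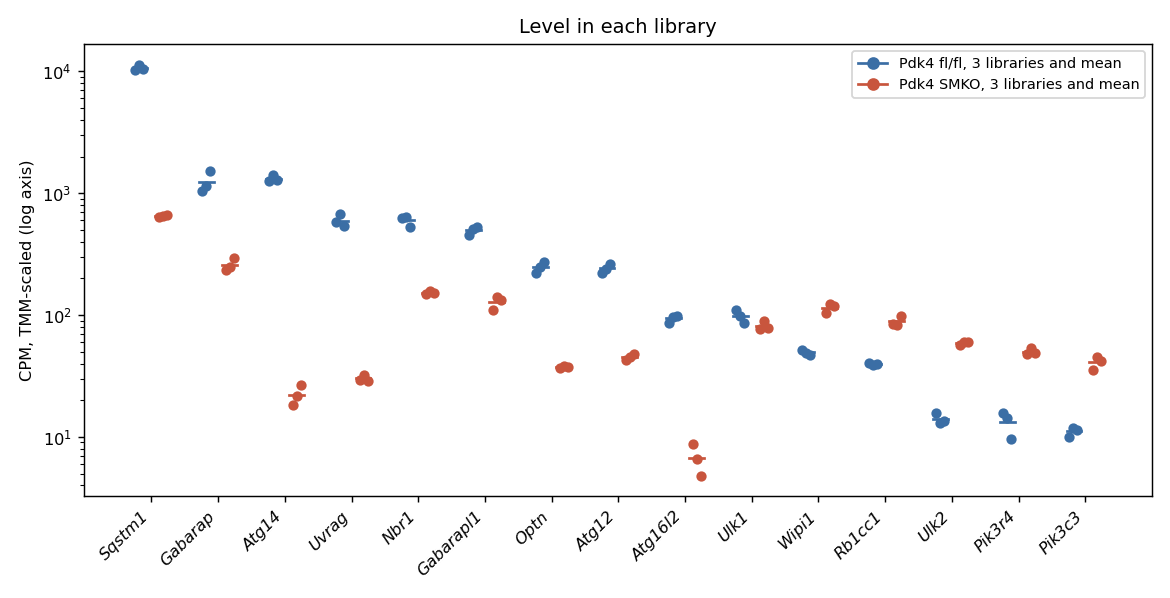
CPM (y axis, TMM-scaled, log axis) of 15 members in each library, with fl/fl in blue, SMKO in red and a line at the mean of 3 libraries. The genotypes are separate for every gene shown except *Ulk1*, with red below blue from *Sqstm1* to *Atg16l2* and above it from *Wipi1* to *Pik3c3*.

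The 2 transcription factors moved in different directions. *Tfe3* had 220.4, 228 and 187 CPM in fl/fl and 70.0, 73.1 and 67.7 CPM in SMKO cells, lower in every knockout library (-1.59 ± 0.12, adjusted p = 1.04e-06), and fell just short of the fold limit with library size alone (-0.99). *Tfeb* had 14.1, 13.1 and 10.4 CPM against 21.4, 21.2 and 15.4 CPM, higher in every knockout library by less than 2-fold (0.62 ± 0.19, adjusted p = 0.0122). *Tfeb* was therefore 8.79% ± 0.616 of their summed level per length in fl/fl and 30.8% ± 3.33 in SMKO cells, so that *Tfe3* was the major transcript in both. RNA levels do not show where these proteins are in the cell, on which their activity is known to depend.

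**Figure D5:**
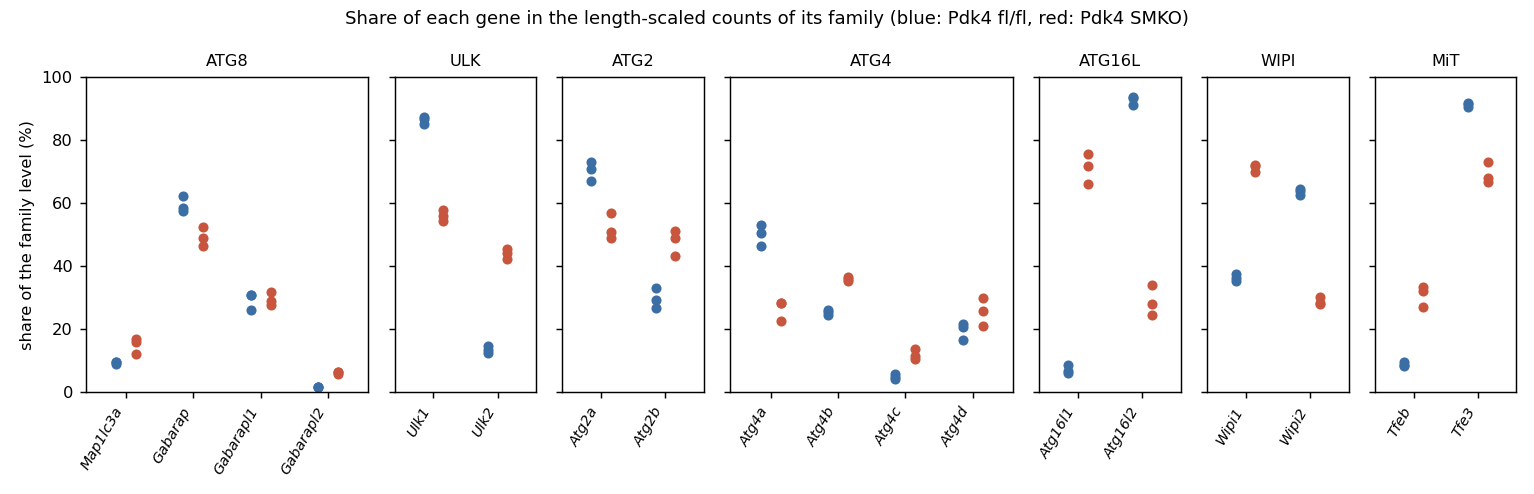
Share (y axis, %) of each gene in the summed length-scaled counts of the members of its family, for 7 families of paralogues, with one point per library (blue fl/fl, red SMKO). Relatives outside the members, such as *Wdr45* and *Wdr45b* for WIPI and the row described as LC3B for ATG8, are not in the sums. The genotypes are separate for all genes shown except *Gabarapl1* and *Atg4d*. The ATG9 pair, whose shares overlapped between genotypes, is not shown. The major transcript per length differs between genotypes for ATG16L, WIPI and ATG4, and by counts alone in all libraries for ATG16L only.

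TFEB and TFE3 bind the CLEAR element, which contains the letters CACGTG, so the promoters were searched for CACGTG on both strands and for the longer TCACGTG, whose matches are a subset. RefSeq promoter windows (GRCm38.p6, 250 bases before the start site to 50 after) were at hand for 32 of the 39 members, in 39 windows, and *Atg12*, *Atg16l1*, *Atg4a-ps*, *Becn1*, *Map1lc3a*, *Pik3c3* and *Rb1cc1* were not matched. CACGTG was found in 4 of the 32 genes (*Atg14*, *Atg3*, *Atg5* and *Atg7*), or 12.5%, against 8.09% of all 27025 genes with windows. By window it was in 10.3% of member windows against 7.15% of all 32851 windows, and TCACGTG in 7.69% against 3.77%. Of the 16 matched members called lower 2 held CACGTG, and of the 5 called higher 0. The windows of the members with the 3 most negative log2 fold changes among those matched, of *Atg3*, the other called gene with the motif, and of the 2 most positive members above 1 CPM in both genotypes are printed from 250 bases before to 10 after the start site, 5′ to 3′ on the gene's strand, with CACGTG in capitals. They lie at chr14:47568425-47568684 (minus strand), chr7:99141135-99141394 (minus strand), chr11:50210811-50211070 (minus strand), chr16:45158579-45158838 (plus strand), chr11:61855083-61855342 (minus strand) and chr9:105642745-105643004 (plus strand), all upstream of the gene except for the last 10 bases.
Atg14: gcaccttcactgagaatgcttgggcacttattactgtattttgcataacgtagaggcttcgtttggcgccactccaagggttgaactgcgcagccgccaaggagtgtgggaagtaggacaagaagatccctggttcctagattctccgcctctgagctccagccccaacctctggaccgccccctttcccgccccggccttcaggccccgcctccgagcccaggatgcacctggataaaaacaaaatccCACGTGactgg
Uvrag: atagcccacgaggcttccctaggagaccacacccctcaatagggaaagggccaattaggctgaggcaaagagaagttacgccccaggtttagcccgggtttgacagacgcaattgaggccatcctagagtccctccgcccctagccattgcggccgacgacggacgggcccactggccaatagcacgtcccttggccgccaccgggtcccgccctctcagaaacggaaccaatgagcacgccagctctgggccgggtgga
Sqstm1: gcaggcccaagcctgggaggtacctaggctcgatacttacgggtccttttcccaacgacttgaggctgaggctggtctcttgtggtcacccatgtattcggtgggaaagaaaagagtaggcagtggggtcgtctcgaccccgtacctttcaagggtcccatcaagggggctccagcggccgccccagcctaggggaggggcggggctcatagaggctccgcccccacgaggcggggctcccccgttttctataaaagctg
Atg3: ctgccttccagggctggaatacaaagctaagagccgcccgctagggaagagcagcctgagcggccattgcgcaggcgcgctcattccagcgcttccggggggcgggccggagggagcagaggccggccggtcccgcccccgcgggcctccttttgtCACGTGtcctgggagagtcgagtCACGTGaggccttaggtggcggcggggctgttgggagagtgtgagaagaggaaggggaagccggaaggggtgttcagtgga
Ulk2: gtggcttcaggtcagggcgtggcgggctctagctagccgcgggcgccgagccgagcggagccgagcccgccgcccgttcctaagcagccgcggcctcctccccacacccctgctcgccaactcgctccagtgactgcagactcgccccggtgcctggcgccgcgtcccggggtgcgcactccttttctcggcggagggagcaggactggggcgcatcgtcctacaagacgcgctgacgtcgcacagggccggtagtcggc
Pik3r4: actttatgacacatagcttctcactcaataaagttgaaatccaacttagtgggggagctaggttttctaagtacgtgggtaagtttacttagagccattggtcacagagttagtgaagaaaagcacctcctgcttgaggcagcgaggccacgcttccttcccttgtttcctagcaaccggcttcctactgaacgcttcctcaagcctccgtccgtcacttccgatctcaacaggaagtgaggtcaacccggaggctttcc

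In *Atg14* the motif starts 1 base before the start site and runs across it, and in *Atg3* it starts 94 and 71 bases before it. *Atg5* and *Atg7*, which also hold it, were not called, and the windows of *Sqstm1* and *Uvrag* do not hold these letters. GC content over these 260 bases was 57.3% in *Atg14*, 62.3% in *Uvrag*, 61.9% in *Sqstm1*, 67.3% in *Atg3*, 72.7% in *Ulk2* and 49.2% in *Pik3r4*.

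Ranked per length among all genes tested in fl/fl cells, the 19 members called lower had a median percentile of 91.8, the 8 called higher 39.6 and the other 12 64.4. Over all genes tested, those called lower, higher and neither had medians of 76.3, 22.3 and 57.9, since the level in fl/fl cells enters the call itself. In SMKO cells the medians were 66.6, 55.2 and 62.1 for the members and 47.6, 43.6 and 56.1 for all genes. The middle of the members by level, between the lower and upper quartiles, spanned 3.92 to 59.7 CPM per kb in fl/fl and 5.67 to 16.8 CPM per kb in SMKO cells. These levels come from the libraries that gave the calls and are a description. Members called lower were also shorter (median of the deposited gene lengths 3438 bases) than those called higher (5869.5 bases), as among all genes called lower (3088 bases) and higher (4051 bases).

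Genes next to the machinery in the pathway, from lists that leave out the members, gave mixed counts. Of 30 nutrient-signalling genes, all tested, 11 were lower and 9 higher (36.7% and 30%, beside 26.5% and 32.8% of all genes tested), and their median log2 fold change was -0.36. The lower ones included *Tsc1* (-4.51), part of the complex that restrains mTORC1, and *Rragc* (-4.02), *Rragd* (-2.44), *Flcn* (-2.12), *Fnip1* (-4.12) and *Fnip2* (-2.17), 2 of the RAG GTPases and the folliculin complex, through which amino acids control TFEB and TFE3. *Rraga*, another RAG GTPase, was not called (0.32, adjusted p = 0.0302). *Rheb* (-1.80) was lower as well. The higher ones included the kinase *Mtor* (1.19), its inhibitor *Deptor* (3.17) and the leucine sensor *Sesn2* (1.87). The AMPK subunits went both ways. *Prkab2* (1.79), *Prkag1* (1.58) and *Prkaa2* (1.48) were higher, *Prkab1* (-1.66) was lower, and *Prkaa1* (-0.52) did not pass the fold limit. *Castor1* and *Castor2* were not among the rows by name.

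Another list mixed genes of the later steps, in which autophagosomes fuse with lysosomes, with some genes of autophagosome formation. Of its 20 genes with a row 9 were lower and 3 higher (45% and 15%, beside 26.5% and 32.8% of all genes tested), with a median of -0.30. *Nrbf2*, also listed, was not among the rows by name. *Tmem41b* (-2.08), *Wdr45* (-1.73), *Wdr45b* (-1.59) and *Sh3glb1* (-1.28), which belong to formation, were lower. *Vmp1* (0.89), also of formation, did not pass the fold limit. *Vps11* (-4.43), *Vps18* (-3.64), *Vps33a* (-1.90) and *Vps16* (-1.03), 4 core subunits of the HOPS tethering complex, and *Rab7* (-2.46), the GTPase that recruits it, were lower. *Vps39* (-0.05, adjusted p = 0.665) and *Vps41* (0.56, adjusted p = 0.00415), the 2 remaining subunits, were not called. The fusion SNARE *Stx17* (2.52), *Tecpr1* (2.26) and *Rubcn* (1.16), which restrains the UVRAG form of the PI3 kinase complex, were higher. The list of other cargo receptors held 16 genes, for mitochondria, endoplasmic reticulum or other cargo. *Ncoa4* and *Retreg1* were not among the rows by name, and *Ccpg1*, with 0 counts in every fl/fl library, was not tested. Of the 13 tested, 3 were lower and 4 higher (23.1% and 30.8%, beside 26.5% and 32.8% of all genes tested). Their median was 0.13. *Tollip* (-3.63), the mitophagy receptor *Bnip3l* (-1.63) and *Sec62* (-1.01), at the edge of the fold limit, were lower. The glycogen receptor *Stbd1* (2.79), *Atl3* (2.42), *Wdfy3* (2.32) and *Fundc1* (1.38) were higher.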

How the data were processed

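Libraries were made with a SMARTER mRNA-Seq kit per the labels and with NEBNext Ultra per the methods. The values deposited are raw counts per gene for the 6 libraries, not normalized. Gene identifiers are those of Ensembl's C57BL/6NJ annotation, while the submitters' processing notes list GRCm39. The aligner, the counting program and the use of strand are not given in the sources used here. Of 41721 rows, 11312 had no gene name.

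The fit used edgeR 4.0.16 in R 4.3.3 (filterByExpr, TMM factors, quasi-likelihood test on genotype, Benjamini-Hochberg adjustment over all 14085 genes tested). Genes were called at an adjusted p under 0.05 and an absolute log2 fold change of at least 1. Family shares were counts divided by gene length over the sum of the family's members, tested with two-sided exact permutations. Values per library were given for called members, for the extremes of each role, for the ATG8 and ULK families and for members whose call changed. The members and lists were chosen with earlier results of these data known. Alternatives were other scalings, filters and thresholds, DESeq2 1.42.0, a fit on protein-coding genes, a block for the replicate number and leaving out each library. The fits were tested on simulated data. The sequences are from RefSeq (GRCm38.p6), whose coordinates differ from those of the table.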

Additional observations from a re-analysis of the deposited data

How the results depend on the processing

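Over the settings run, 14 to 20 members were called lower and 7 to 11 higher with the 2-fold limit, and 22 and 9 with a limit of 1.5-fold. Over the scalings, filters and fits, 2390 to 4360 of all genes were called lower and 3165 to 6184 higher, with 11301 to 24025 tested. The other limits on p and fold were counted over the members alone. With library size alone, 16 members had an adjusted p under 0.05 and were higher, against 9 with TMM, since that scaling moves every gene up. Of all genes tested, 43.9% were then called higher with the 2-fold limit, against 32.8% with TMM. The same shift reversed the log2 fold changes of *Ulk1* (0.34), *Atg4d* (0.15), *Atg4b* (0.27), *Atg5* (0.49), *Atg7* (0.60) and *Gabarapl2* (0.44), and upper-quartile scaling those of *Atg5* (0.092), *Atg7* (0.20) and *Gabarapl2* (0.041). *Atg7*, at -0.01, was also positive without a filter (0.042) and where all libraries had to reach 10 counts (0.093), a filter that left out *Atg9b*. Without 1 library it ranged from -0.071 to 0.057. Without 1 library 18 to 20 members were called lower and 8 higher, and 26 of the 27 calls were made in all 6 fits, the exception being *Atg2b*. Those fits called 3682 to 3908 of all genes lower and 4630 to 4825 higher, with 14354 to 14607 tested. Library size alone also took the calls of *Atg101* (-0.70), *Map1lc3a* (-0.71), *Tfe3* (-0.99), *Tax1bp1* (-0.50) and *Atg2b* (-0.44) and added *Atg4c* (1.07), *Atg10* (1.16) and *Tfeb* (1.23).

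Without division by gene length, the differences in family share (percentage points, SMKO minus fl/fl) kept their sign but moved to 6.01 for *Gabarapl2*, -13.6, 8.40, 4.50 and 0.71 for *Atg4a*, *Atg4b*, *Atg4c* and *Atg4d*, 69.7 and -69.7 for *Atg16l1* and *Atg16l2*, 31.5 and -31.5 for *Wipi1* and *Wipi2*, and 15.9 and -15.9 for *Tfeb* and *Tfe3*. The share of *Gabarapl1* differed by 0.090 points with all libraries and by -1.49 to 0.98 without 1 library. The share of *Atg9b* differed by 7.10 points, with overlapping genotypes, and by 1.36 without SMKO replicate 1.

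The replicate numbers were not taken to pair the libraries. Same-numbered libraries correlated at 0.05, 0.11 and 0.26 in their deviations from the genotype means. Replicate 1 of fl/fl was closest to replicate 2 of SMKO, while fl/fl replicates 2 and 3 were closest to the SMKO library of their own number. These values do not settle whether the libraries were paired. With the replicate block, 19 members were called lower and 8 higher, as without it, beside 3704 and 4577 of the 14085 genes tested. Depth limits *Atg9b* most, with 1 to 5 counts in fl/fl libraries.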
